A study of Nicotiana tabacum with 12 samples.

Results

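In leaves of tobacco, 136 of 35519 NiTAB identifiers had a mean level in each of the transgenic *DcLCYB1* lines L14, L15, and L16 that was at most 0.5 of the wild type mean. They were chosen by these same measured values. A member needed a wild type mean of at least 5 CPM (the count of a gene scaled to the sum of gene counts of its library), a mean of at least 0.2 CPM in each line, a ratio of each line mean to the wild type mean of at most 0.5, and a highest line library below the lowest wild type library. The differences between the lines and the wild type are therefore given as a description of the members, without a test. What was tested is how the 3 lines differed from each other. The rule set no order among the lines, but each line mean had to meet its limits.

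The wild type and the lines were of *Nicotiana tabacum* cultivar Xanthi NN, and leaf RNA of 5-week-old plants was sequenced in 12 libraries, 3 biological replicates for each of the 4 genotypes. L14, L15, and L16 express the lycopene β-cyclase 1 gene of carrot, each line being a separate transgenic line, and the wild type carries no transgene. The study compared them to describe the response of the plants beyond the carotenoid pathway. The labels give the seed material as the T4 generation and the RNA source as T3 plants, describe the same kanamycin medium for the germination of all genotypes, and the promoter of the transgene is not given in the sources used here. The carrot transgene is not a NiTAB gene, and its level was not analysed here.

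Lycopene β-cyclase is a plastid enzyme that closes the ends of the linear lycopene molecule to rings and so makes β-carotene. β-Carotene and the xanthophylls made from it protect the photosynthetic apparatus from excess light, and they are precursors of the hormones abscisic acid and strigolactone. Tobacco is an allotetraploid that carries the genomes of a pair of ancestral species, so many genes exist as near-identical copies, and a read that aligns to both copies is not counted on either. In the QuantSeq method a read comes from the polyadenylated end of a transcript, so CPM can be compared between genes without correction for length. The deposited counts list genes by NiTAB identifier only, and 0 of the 35519 identifiers matched the RefSeq gene table of the K326 assembly. No gene name or function is therefore given to any identifier, and the leaf origin of the libraries could not be checked against marker genes. In an identifier such as Nitab4.5_0000037g0280, the number before the g is the scaffold of the NiTAB 4.5 genome and the number after it gives the order of genes along that scaffold.

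Gene counts per library ranged from 12887911 to 24343174, so 3 counts correspond to between 0.123 and 0.233 CPM, which covers counting error only. Replicate 3 of the wild type stood apart from the other wild type libraries. It held the lowest of the 3 wild type values for 62.5% of the 8987 identifiers with a wild type mean of at least 5 CPM, and its TMM factor (edgeR's correction for composition) was 0.854, whereas the factors of the other 11 libraries were from 0.912 to 1.10. The spike-in RNAs that had been added to the libraries also differed in composition: the share of SIRV4 among them was 5.19% to 5.38% for the wild type libraries and 6.34% to 7.77% for the line libraries. Of all listed reads, 35.6% to 38.1% fell outside annotated genes in wild type libraries, and 33.4% to 36.4% did so in line libraries. The part of these differences in the values of the members was not tested.

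Of the 8987 identifiers with at least 5 CPM in the wild type, a ratio of at most 0.5 was found for 217 (L14), 293 (L15), and 514 (L16). The ratio was at most 0.5 in all 3 lines for 171 identifiers. Among these, 29 were removed because a line library reached the wild type range, and a further 6 because a line mean was below 0.2 CPM. The same rule turned around, with line means at least doubled, gave 265 identifiers, so that members made up 33.9% of both sets together. This split depended on the scaling. With TMM factors in place of total gene counts, 167 identifiers were halved and 211 doubled, a share of 44.2%, and the 167 included all 136 members. The median log2 ratio of line to wild type over all tested genes was, by CPM, 0.15 for L14, 0.09 for L15, and 0.07 for L16, and 0.02, 0.01, and 0.00 with TMM factors. Relative to the middle of all genes, the members were thus somewhat lower than their CPM ratios state, with TMM-scaled median ratios of 0.317 (L14), 0.289 (L15), and 0.253 (L16).

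**Figure D1:**
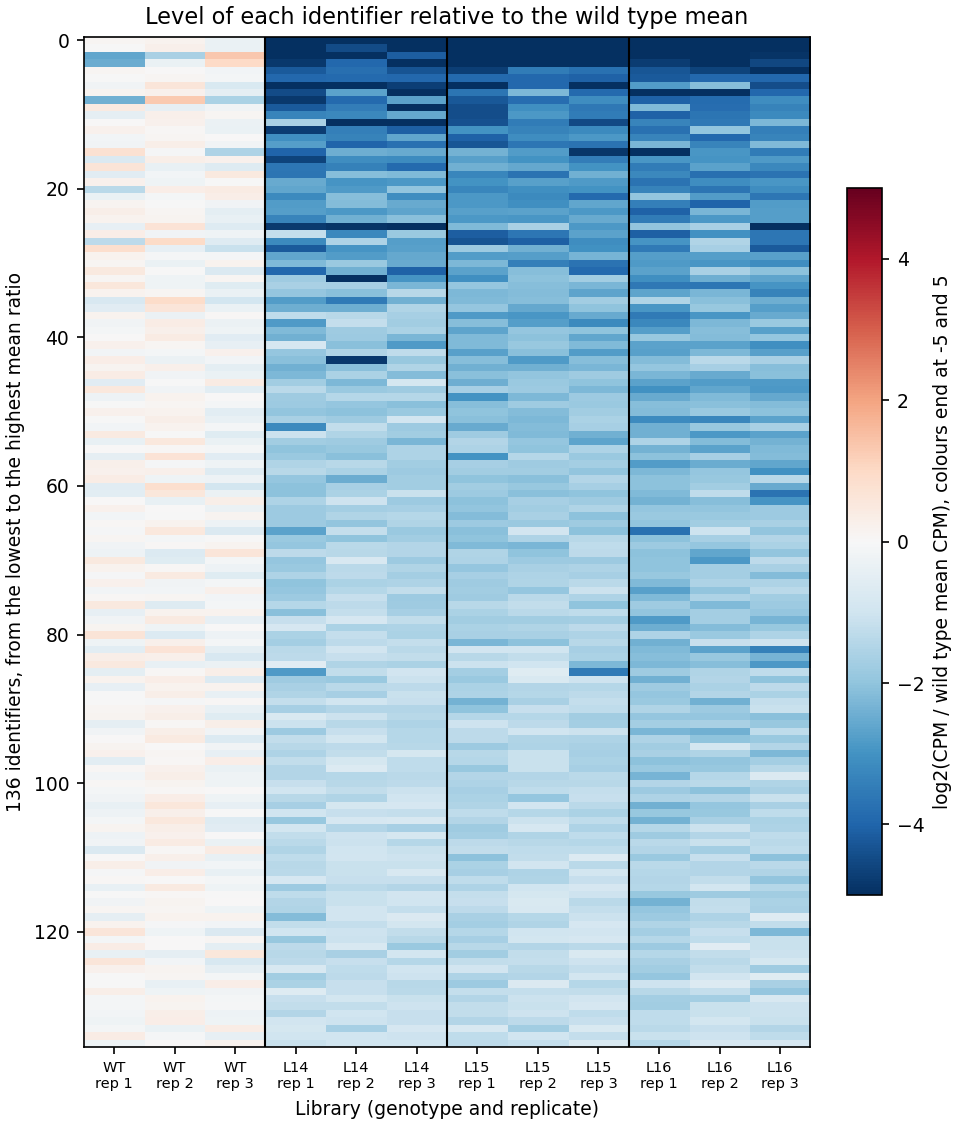
Each row is 1 of the 136 members and each column 1 of the 12 libraries, coloured by the log2 of CPM over the wild type mean of that member, with values under 3 counts drawn at 3 counts. The 9 line columns are blue from top to bottom, as the rule requires, and the blue is deepest in the 7 members with every ratio at most 0.1 and palest in the 49 with a largest ratio above 0.4.

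The members differed widely in abundance. Their wild type means ran from 5.03 to 6744 CPM with a median of 22.4 CPM, and the median of all 8987 identifiers was 20.1 CPM. A wild type mean of at least 10 CPM was found for 98 members (72.1%), compared with 73.3% of the 8987, and a mean of at least 1000 CPM for 4 members (2.94%), compared with 1.52%. Of the gene counts of a library, the members together took 2.16% ± 0.410 (SD, n = 3 in this and each line) in wild type. In L14 they took 0.667% ± 0.0986, L15 had 0.576% ± 0.0553, and L16 had the least with 0.452% ± 0.0524. The single most abundant member accounted for 15.5% of this sum in replicate 1 of the wild type and for 34.1% and 40.1% in replicates 2 and 3.

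The residual level in the lines varied widely among the members. L14 had a median ratio to the wild type of 0.346 (from 0.00549 to 0.499), L15 of 0.305 (from 0.00692 to 0.492), and L16 of 0.261 (from 0.00558 to 0.493). For 102 members the largest of the 3 ratios was above 0.25, for 27 it lay between 0.1 and 0.25, and for 7 every ratio was at most 0.1. Every member was well counted in the wild type, with at least 19 counts in each library. In the lines, 6 members had under 3 counts in at least 1 library and 2 members had a library with 0 counts. The lowest wild type library exceeded the highest line library by a factor of at least 2 in 49 members, with a median factor of 1.71.

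Nitab4.5_0000037g0280 had the highest wild type level of all members. Its level in the wild type was 2649, 8568, and 9014 CPM, and the libraries of replicates 2 and 3 were thus more than 3 times the library of replicate 1. It was 1108, 955, and 1704 CPM in L14, 706, 794, and 843 CPM in L15, and 662, 529, and 781 CPM in L16. L14 was 5.37-fold, L15 8.63-fold, and L16 10.3-fold below the wild type mean, but the fold rests on the wild type replicates 2 and 3, since the lowest wild type library was only 1.55 times the highest line library.

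Nitab4.5_0002219g0010 was the next in abundance, and its wild type libraries were uneven in another order, at 2905, 5556, and 2840 CPM. It measured 1182, 2066, and 2092 CPM in L14, 1331, 1939, and 1480 CPM in L15, and 703, 984, and 1229 CPM in L16, so that L16 was the lowest line and L14 reached 0.472 of the wild type mean. Nitab4.5_0000959g0110 followed with 1060, 1013, and 2061 CPM in the wild type. Its 3 line means were close to each other, with L14 at 571 ± 143 CPM, L15 at 603 ± 199 CPM, and L16 at 588 ± 69.9 CPM (SD, n = 3 each), and differed by less than the spread within a line. In the 3 most abundant members a single wild type replicate was therefore far from the other two, and it was not the same replicate each time.

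The lowest mean ratio was that of Nitab4.5_0001737g0010. Its wild type libraries held 105, 110, and 76.7 CPM, from 1357 to 1868 counts. The 9 line libraries held between 1 and 18 counts, or 0.0581 to 1.07 CPM, and the mean was 182-fold below the wild type for L14, 144-fold for L15, and 179-fold for L16. Wild type and line libraries were separated by a factor of 71.6, the widest gap of all members.

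Nitab4.5_0000356g0100 was next, with 27.5, 33.2, and 22.1 CPM in the wild type and from 0 to 1.24 CPM in the 9 line libraries. Replicate 1 of L16 had 0 counts, which allows up to 0.179 CPM, and replicate 2 of L14 had 23 counts, more than any other line library. Nitab4.5_0000900g0150 had the next lowest mean ratio, but its wild type libraries did not lie together. Its wild type libraries were at 3.72, 7.32, and 57.2 CPM, so that replicate 3 set the wild type mean, and the line libraries lay between 0 and 1.32 CPM.

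**Figure D2:**
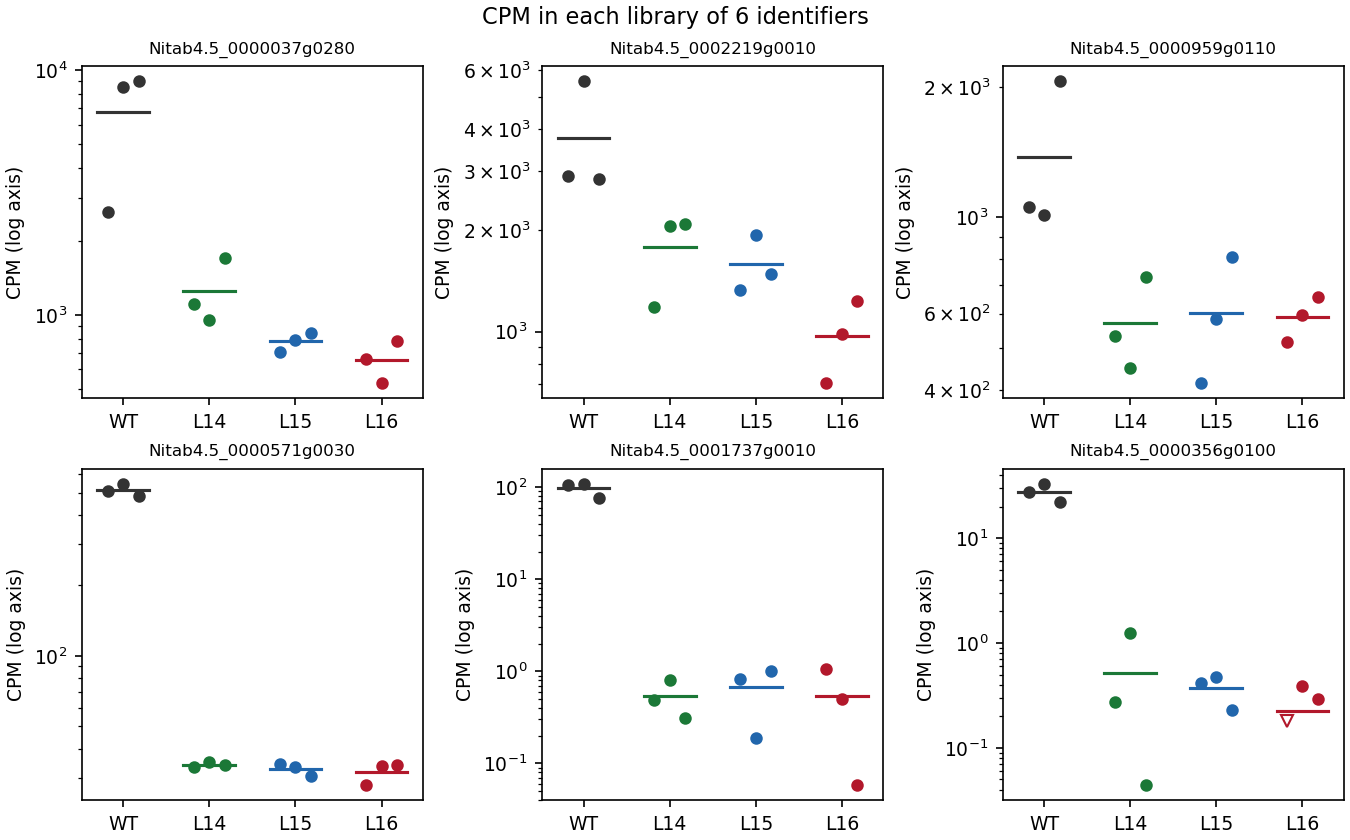
CPM in each library (points, replicates 1 to 3 from left to right) and genotype means (bars) of 6 members on log axes; an open triangle marks a library with 0 counts, drawn at the level of 3 counts. The upper row shows the 3 most abundant members with 1 wild type replicate apart from the others, and the lower row shows 3 members whose wild type libraries lie close together and at least 13.8 times above every line library.

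Some members had nearly the same level in all 9 line libraries. Nitab4.5_0000571g0030 and Nitab4.5_0002470g0030 are described for this evenness, and were picked after their values had been seen. Nitab4.5_0000571g0030 was at 508, 546, and 484 CPM in the wild type and between 27.9 and 35.1 CPM in every line library, a mean of 33.0 ± 2.24 CPM (SD over the 9 libraries). L14 was 14.99-fold, L15 15.6-fold, and L16 16.08-fold below the wild type. Nitab4.5_0002470g0030 was at 991, 838, and 818 CPM in the wild type and between 127 and 176 CPM in the line libraries, and L14 was 6.30-fold, L15 6.06-fold, and L16 6.64-fold below the wild type. In both, the coefficient of variation over the 9 line libraries (6.78% and 11.1%) was close to that over the 3 wild type libraries (6.09% and 10.7%).

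Such evenness was less frequent among the members than among other genes. Of the 63 members with a mean of at least 5 CPM in every line, 12 (19.0%) had a highest line library within 1.5 times the lowest, compared with 35.8% of all 8281 identifiers at these levels. The median factor between the highest and the lowest line library was 1.94 for the members and 1.62 for all. Within a single genotype, the highest replicate was at least 4 times the lowest in 9 members in L14 (6.62%, all identifiers 0.267%), 4 in L15 (2.94%, all 0.334%), and 11 in L16 (8.09%, all 0.278%). In the wild type this range was found in 5 members (3.68%, all 0.990%). The members had lower line levels than the 8987 identifiers of the wild type threshold. In the wild type their median level was 22.4 CPM, and that of the 8987 was 20.1 CPM. The part of the levels in this difference in spread was not tested.

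The lines were not equally low among the members, in line means that had also taken part in the choice. Of the 8987 identifiers, 217 met the ratio limit in L14 and 514 in L16. The genes set beside the members did not have to meet this limit. The part of the choice in the differences between the lines was not tested. L16 had the lowest of the 3 line means in 88 of 136 members (64.7%), compared with 46.7% of all identifiers with a wild type mean of at least 5 CPM. With TMM factors these shares were 60.3% and 40.5%. L14 had the highest line mean in 83 members (61.0%, all identifiers 42.4%), and the order L14 over L15 over L16 was found in 67 members (49.3%, all identifiers 29.9%). With TMM factors L14 was the highest line in 52.2% of members and 32.0% of all identifiers, and that order held for 41.2% and 22.6%. In the fit across all 18823 tested genes, the members had a median log2 fold change of -0.23 for L16 against L14, -0.16 for L16 against L15, and -0.10 for L15 against L14, where the median over all genes was 0.00 in each pair. All 136 members entered this fit, and in 98 of them (72.1%, all genes 50.2%) the log2 fold change of L16 against L14 was negative.

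Between L16 and L14, 10 of the 136 members (7.35%) passed the threshold of 0.05 on the Benjamini-Hochberg adjusted p of edgeR's quasi-likelihood test, compared with 1.73% of all tested genes. In 8 of them (5.88%, all genes 0.574%) L16 was lower than L14, and in 2 (1.47%, all genes 1.16%) it was higher. Between L16 and L15, 3 members (2.21%, all genes 0.712%) differed, each lower in L16 (all genes 0.218%), and 0 were higher (all genes 0.494%). No member differed between L15 and L14 by edgeR's test (all genes 0.0159%, of which 0.0106% higher and 0.00531% lower in L15), and 10 members had an unadjusted p under 0.05 there (7.35%, all genes 3.69%). By DESeq2's Wald test the counts were 20 (14.7%, all genes 4.90%) for L16 against L14, 9 (6.62%, all genes 2.25%) for L16 against L15, and 2 (1.47%, all genes 0.0665%) for L15 against L14. Without the filter on low counts, edgeR called 26 (19.1%, all genes 3.15%), 12 (8.82%, all genes 1.52%), and 4 (2.94%, all genes 0.193%). The counts also depended on single libraries. The 10 members of L16 against L14 became 2 without L16 replicate 2 (1.47%, all genes 0.591%). They became 3 (2.21%) without L16 replicate 1 (all genes 0.954%) or L14 replicate 2 (all genes 0.445%). There were 6 without L14 replicate 3 (4.41%, all genes 0.863%) and 16 without the wild type replicate 3 (11.8%, all genes 2.80%). The 3 members of L16 against L15 became 0 without L15 replicate 1 (all genes 0.155%) or 2 (all genes 0.109%). They also became 0 without L16 replicate 1 (all genes 0.369%) or 2 (all genes 0.155%). There was 1 (0.735%) without L14 replicate 2 (all genes 0.6%) or 3 (all genes 0.594%).

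**Figure D3:**
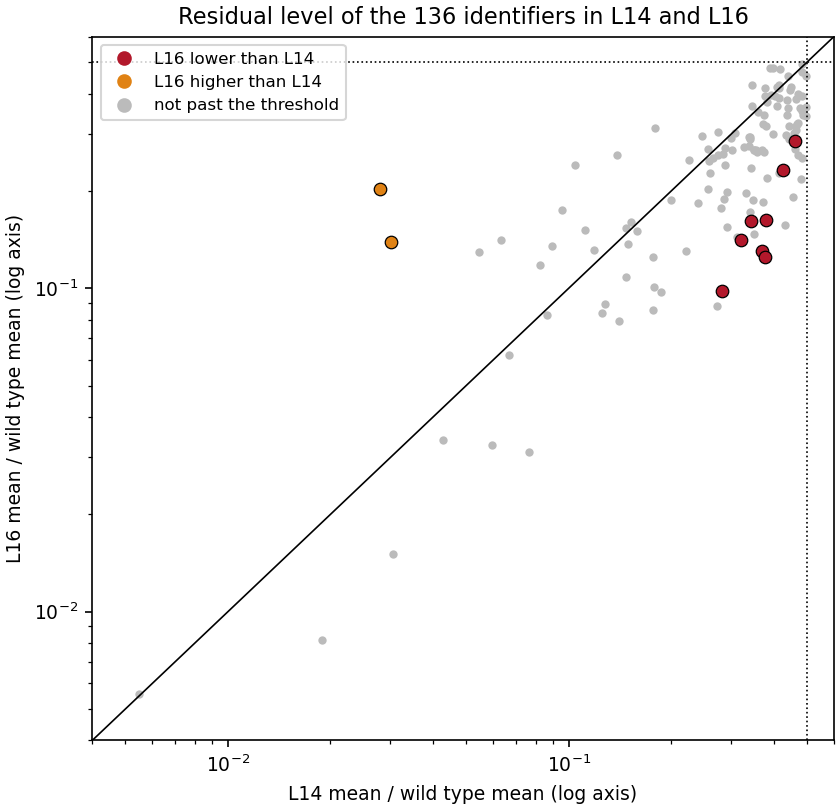
Ratio of the L14 mean (x axis) and of the L16 mean (y axis) to the wild type mean for the 136 members, on log axes, with the diagonal of equal levels and dotted lines at the limit of 0.5. Most points lie below the diagonal, and the 10 members that differed between L16 and L14 by edgeR's test are 8 below it (red) and 2 above it (orange).

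Nitab4.5_0009795g0010 had the smallest adjusted p between L16 and L14. Its wild type libraries were at 576, 709, and 452 CPM, those of L14 at 191, 167, and 298 CPM, those of L15 at 137, 121, and 193 CPM, and those of L16 at 65.4, 60.5, and 91.3 CPM. All L16 libraries were below all L15 libraries, whereas L14 and L15 overlapped. The log2 fold change of L16 against L14 was -1.52 (SE 0.264, adjusted p = 0.00678, edgeR's quasi-likelihood test), and the call held without any single library, with adjusted p-values from 0.00401 to 0.0477.

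Nitab4.5_0000244g0130 was lower in L16 than in both other lines. It measured 198, 122, and 96.3 CPM in the wild type, 54.7, 38.5, and 40.1 CPM in L14, 43.9, 39.6, and 29.7 CPM in L15, and 17.1, 23.1, and 18.8 CPM in L16, and the L16 libraries did not overlap with the others. The log2 fold change was -1.10 against L14 (SE 0.202, adjusted p = 0.00988) and -0.92 against L15 (SE 0.202, adjusted p = 0.0466), both by edgeR's quasi-likelihood test. Against L14 the adjusted p was 0.0532 without L16 replicate 1. Against L15 the call was lost without L15 replicate 1 or 2, L14 replicate 2 or 3, or any one of the L16 replicates, and the adjusted p reached 0.251 without L15 replicate 1.

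Nitab4.5_0000697g0180 had even replicates in each genotype. Its level was 108, 114, and 109 CPM in the wild type, 45.8, 50.9, and 56.3 CPM in L14, 49.0, 60.6, and 53.5 CPM in L15, and 29.9, 32.0, and 33.1 CPM in L16. L14 and L15 overlapped and L16 lay apart below them. The log2 fold change of L16 was -0.75 against L15 (SE 0.145, adjusted p = 0.0218) and -0.62 against L14 (SE 0.145, adjusted p = 0.0389) by edgeR's quasi-likelihood test. The call against L15 was lost without any one L15 replicate or without L16 replicate 1 or 2, with adjusted p-values of up to 0.146. The call against L14 was lost without L14 replicate 2 or 3, any one L15 replicate, or L16 replicate 1 or 2, with adjusted p-values of up to 0.176.

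The 2 members that the test called higher in L16 than in L14 are both low in abundance. They are named as the exceptions to the direction among the 10 called members, after their values had been seen. Nitab4.5_0001101g0030 was at 7.22, 15.4, and 6.16 CPM in the wild type, 0.346, 0.323, and 0.132 CPM in L14, 2.08, 3.09, and 1.30 CPM in L15, and 2.44, 3.08, and 0.291 CPM in L16. The L14 libraries held from 3 to 6 counts, L16 replicate 3 had 5 counts and fell in the range of L14, and the L15 libraries were all above L14. The log2 fold change of L16 against L14 was 2.92 (SE 0.682, adjusted p = 0.0400, edgeR's quasi-likelihood test). It was not called without any one of the L14 replicates, L15 replicate 1, or L16 replicate 1 or 2, where the adjusted p reached 0.167. Nitab4.5_0001847g0020 was at 15.4, 26.5, and 10.4 CPM in the wild type, 0.484, 0.431, and 0.662 CPM in L14, 0.312, 1.14, and 0.537 CPM in L15, and 2.50, 3.96, and 0.814 CPM in L16. Here L16 stood above L14 in each library, by a log2 fold change of 2.19 (SE 0.521, adjusted p = 0.0428, edgeR's quasi-likelihood test), and the call was lost without any one L14 replicate or L16 replicate 1 or 2, where the adjusted p reached 0.195.

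The replicates of a line also differed in how low the members were. Replicate 1 had the lowest of the 3 values in 67 members in L14 (49.3%, all identifiers 29.9%), in 68 in L15 (50.0%, all 35.8%), and in 64 in L16 (47.1%, all 39.2%). In the wild type this was the case for 39 members (28.7%, all 16.19%), and replicate 3 was the lowest for 76 (55.9%, all 62.5%). Replicate 1 of each line also had the highest share of SIRV4 among the spike-in counts of that line, with 7.55% (L14), 7.33% (L15), and 7.77% (L16), compared with 6.58%, 6.34%, and 6.50% in replicate 3. The part of this in the levels of the members was not tested.

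To see how far the low ratios extend to libraries that took no part in the choice, the rule was applied to 2 replicate numbers and the ratios were read in the third, for each number in turn. The 3 ratios of an identifier then share a single wild type library. With replicate 1 held out, 139 identifiers were chosen, 113 of them members. In the 4 libraries of replicate 1 the median ratio of the 139 was 0.345 (L14), 0.290 (L15), and 0.244 (L16). Of the 139, 98 (70.5%) had all 3 ratios at most 0.5, compared with 2.50% of all identifiers with at least 5 CPM in the wild type libraries used. With replicate 2 held out, 142 were chosen, 111 of them members. Of the 142, 89 (62.7%, all identifiers 2.20%) had all 3 ratios at most 0.5.

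With replicate 3 held out the values differed. The rule then chose 195 identifiers, 119 of them members. In replicate 3 the median ratio of the 195 was 0.521 (L14), 0.474 (L15), and 0.411 (L16), with 75 (38.5%, all identifiers 1.56%) at most 0.5 in all 3 lines. The median ratio of all identifiers in replicate 3 was 1.14 (L14), 1.11 (L15), and 1.04 (L16). It was 1.02, 0.963, and 0.910 in replicate 1, and 1.00, 1.01, and 1.05 in replicate 2. TMM factors were an alternative added after the data had been seen. With them, the rule chose 199, 187, and 229 identifiers with replicates 1, 2, and 3 held out. Of these, 65.3%, 60.4%, and 46.7% had all 3 ratios at most 0.5 (all identifiers 2.96%, 2.72%, and 2.23%). The rule itself had been written with the values of all libraries known.

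**Figure D4:**
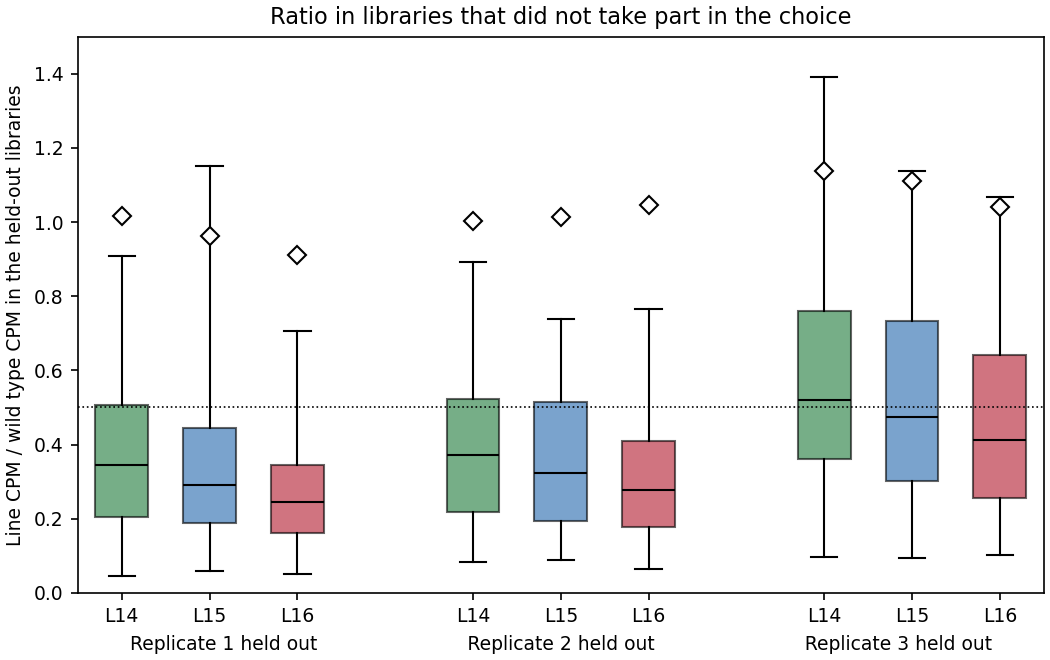
Ratio of line to wild type CPM in the 4 libraries of the replicate number held out, for identifiers chosen from the other replicate numbers (139, 142, and 195 from left to right). Boxes span the quartiles with the median, whiskers the 5th to 95th percentile, diamonds the median of all identifiers with at least 5 CPM in the wild type, and the dotted line a ratio of 0.5, which all medians fall below except that of L14 in replicate 3.

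The 136 members lay on 122 scaffolds, and 27 of them shared a scaffold with another member. Of the 14 pairs of successive members on a scaffold, 2 were direct neighbours. One was Nitab4.5_0003280g0030 and Nitab4.5_0003280g0040, named after their values had been seen. The first was at 39.3, 60.4, and 72.2 CPM in the wild type and at means of 26.4, 22.4, and 15.4 CPM in L14, L15, and L16. The second was at 324, 223, and 200 CPM in the wild type and at means of 63.8, 65.3, and 50.7 CPM in the lines. Their wild type libraries ran in opposite order, the first highest and the second lowest in replicate 3. Of the 81 direct neighbours of members with at least 5 CPM in the wild type, 4 (4.94%) were members, those of the 2 pairs. Of all such identifiers 1.51% were members. The 77 neighbours that were not members had median ratios of 0.949 (L14), 0.943 (L15), and 0.921 (L16), where the other identifiers had 1.04, 1.02, and 0.995. All 3 ratios were below 1 for 37 of these neighbours (48.1%), compared with 35.3% of the other identifiers.

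Scaffold 241 held the most members, 3 among its 28 identifiers. Nitab4.5_0000241g0120 was at 6.13, 8.59, and 6.20 CPM in the wild type and between 0.363 and 1.51 CPM in the line libraries, and L14 was 10.5-fold, L15 14.23-fold, and L16 5.72-fold below the wild type. Nitab4.5_0000241g0060 was at 26.1, 14.6, and 10.4 CPM in the wild type, with line means of 8.04, 7.87, and 5.52 CPM. Nitab4.5_0000241g0170 was at 81.5, 110, and 74.4 CPM in the wild type and had line means of 38.9, 39.6, and 40.2 CPM. The 3 members were thus low to different extents, and the line order differed between them.

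Other identifiers of the scaffold differed in direction. Nitab4.5_0000241g0130, which directly follows Nitab4.5_0000241g0120, had a mean of 3.25 CPM in the wild type and ratios of 5.89, 4.93, and 4.19 to it in L14, L15, and L16. Nitab4.5_0000241g0110, directly before Nitab4.5_0000241g0120, had a mean of 1.59 CPM in the wild type and ratios of 2.38, 2.42, and 2.63. Nitab4.5_0000241g0080, between the first and the middle member, had a mean of 4.27 CPM in the wild type and ratios of 0.573, 0.591, and 0.497. Nitab4.5_0000241g0180, directly after the last member, had ratios of 0.168, 0.0205, and 0.168, at a wild type mean of only 0.771 CPM. Of the 15 identifiers on this scaffold with a wild type mean of at least 1 CPM, 3 were at most 0.5 of the wild type in all 3 lines, and 4 were at least doubled in all 3.

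**Figure D5:**
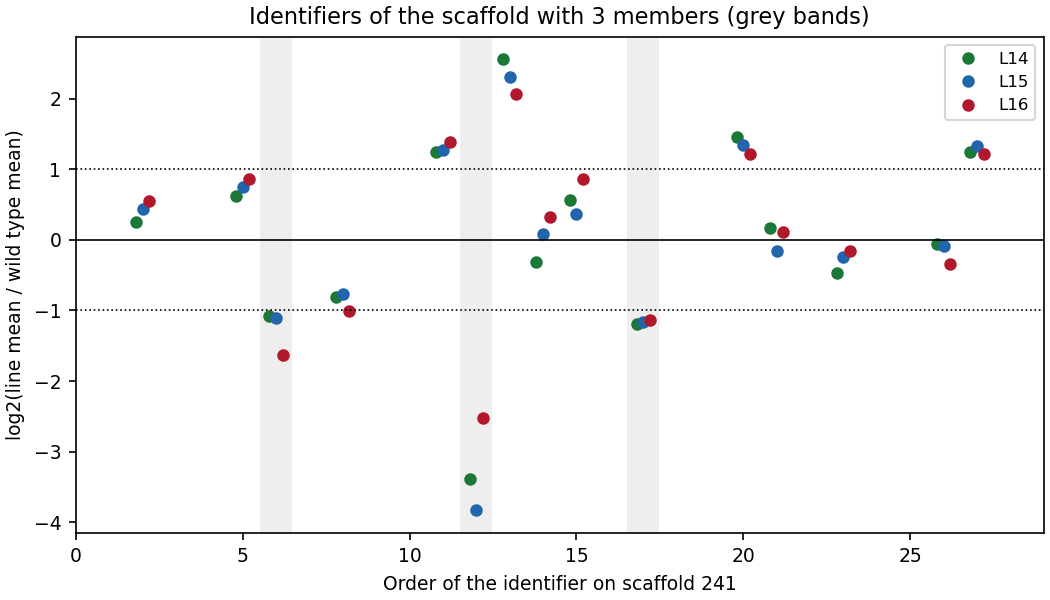
Log2 ratio of the line means to the wild type mean (points, coloured by line) for the 15 identifiers of scaffold 241 with a wild type mean of at least 1 CPM, by their order on the scaffold. The 3 members (grey bands, orders 6, 12, and 17) lie below the dotted line at -1 in every line. The identifiers on either side of the middle one, at orders 11 and 13, lie above the dotted line at 1.

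The limits of the rule passed through a continuous range of values. The members with the largest ratio were Nitab4.5_0001438g0030 and Nitab4.5_0002314g0010, at 0.499 and 0.496 in L14. Just outside were Nitab4.5_0000794g0110 with 0.5001 in L16 and Nitab4.5_0000143g0170 with 0.503 in L16. The latter is abundant, at a mean of 6870 CPM in the wild type and of 3050, 3379, and 3454 CPM in L14, L15, and L16. The narrowest separation of wild type and line libraries was that of Nitab4.5_0000960g0070, with a lowest wild type library of 4.15 CPM and a highest line library of 4.02 CPM, followed by Nitab4.5_0002769g0040 with 5.38 and 5.13 CPM. On the other side of that limit, Nitab4.5_0000052g0220 had a lowest wild type library of 8.38 CPM and a highest line library of 8.75 CPM. Nitab4.5_0002388g0030 had the lowest wild type mean, 5.03 CPM, and Nitab4.5_0000103g0030 missed the minimum with 4.91 CPM.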

How the data were processed

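Leaf RNA (500 ng per library) was made into QuantSeq FWD 3' libraries, which shared 1 sequencing run. Reads were aligned to NiTAB 4.5 by STAR, and the authors deposited raw counts per identifier and library, without normalization. The version of STAR, the counting program, and its strand setting are not given in the sources used here. The 99 spike-in and 5 summary rows of each library were left out of the library sums. From 19.1% to 21.4% of the listed reads of a library were not uniquely aligned and are not in the gene counts, so the values of near-identical copies are uncertain, as are those of overlapping genes. CPM was computed as count over the sum of gene counts.

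The lines were compared with each other by edgeR 4.0.16 in R 4.3.3, with TMM scaling, filterByExpr (minimum of 10 counts), and the quasi-likelihood test, fitting genotype alone to all 12 libraries and Benjamini-Hochberg adjustment over all 18823 genes. The SE is the absolute log2 fold change over the square root of F. The script was tested on simulated data. Between replicates, the chi-square per gene of the counts was at least 11.9, so none was a copy of another. The labels call the replicates biological and do not say how many plants each holds.

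The members, the rule, and the tests were chosen with earlier results of these data known. The members described are the 3 of highest wild type level, the 3 of lowest mean ratio, the 2 of smallest adjusted p per pair of lines where it is under 0.05 (no member between L15 and L14), the 2 on each side of the ratio limit, the 2 of smallest gap, and those of the scaffold with most members, plus 6 named as chosen after their values were seen. Planned lists of carotenoid, gibberellin, photosynthesis, redox, and leaf marker genes were not used, because the identifiers carry no names. Alternatives were DESeq2 1.42.0, other scalings, filters, and limits, the 6 libraries of a pair, the replicate block, and each library left out.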

Additional observations from a re-analysis of the deposited data

Results flagged for a closer look

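The lines differed from each other in some members, by a test of the difference itself. By edgeR's quasi-likelihood test, 10 members (7.35%, all genes 1.73%) separated L16 from L14, and 3 (2.21%, all genes 0.712%) separated L16 from L15. Without L16 replicate 2 these counts were 2 (all genes 0.591%) and 0 (all genes 0.155%). The log2 fold change of L16 against L14 was -1.52 for Nitab4.5_0009795g0010, -1.10 for Nitab4.5_0000244g0130, and -0.62 for Nitab4.5_0000697g0180. Against L15 it was -0.92 for Nitab4.5_0000244g0130 and -0.75 for Nitab4.5_0000697g0180. Nitab4.5_0001101g0030 (2.92) and Nitab4.5_0001847g0020 (2.19) went the other way between L16 and L14.

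In the spike-in counts, which no comparison of the members uses, the lowest share of SIRV4 in a line library was 6.34% and that of SIRV7 1.80%, whereas the wild type libraries reached at most 5.38% and 1.74%. The part of this in the values of the members was not tested.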

How the results depend on the processing

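With a ratio limit of 0.4 the rule gave 87 identifiers, and with 0.6 it gave 248. The other limits and scalings gave from 98 to 177, and leaving out 1 library from 125 to 183. The highest value was that without the wild type replicate 3, where 125 of the 136 members were among those chosen.

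Between L16 and L14, 20 members were called by DESeq2's Wald test (all genes 4.90%) and 26 with no filter (all genes 3.15%), and leaving out 1 library gave from 2 to 16 (all genes 0.445% to 2.80%). Between L16 and L15 the numbers were 9 by DESeq2 (all genes 2.25%) and 12 with no filter (all genes 1.52%), and from 0 to 4 with 1 library left out (all genes 0.109% to 0.956%). Between L15 and L14 they were 2 by DESeq2 (all genes 0.0665%) and 4 with no filter (all genes 0.193%). With each of the 12 libraries left out they were 0 (all genes 0.00514% to 0.0311%). The causes were not tested. Scaling by RLE or the upper quartile and the fit of the 6 libraries of a pair stayed within 1.5 times in each pair. In the fit of 6 libraries, Nitab4.5_0000697g0180 (adjusted p = 0.0590) and Nitab4.5_0001847g0020 (adjusted p = 0.0533) were not called between L16 and L14 by edgeR's quasi-likelihood test. For the 5 members whose differences between lines are given with a test, no sign turned in the alternatives that gave a value. Nitab4.5_0001101g0030 gave none in the fit of 6 libraries.

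Same-numbered libraries of different lines deviated from their line means with correlations from -0.0499 to 0.239 across genes, above 0.1 in 6 of 9 pairs. A line library correlated best with its own number in another line in 16 of 18 cases, which is a hint from the data and not from the labels. Since not every pair was above 0.1, the numbers were not taken to pair the libraries. With the replicate block, 20 members (14.7%, all genes 3.60%) were called for L16 against L14 and 5 (3.68%, all genes 1.06%) for L16 against L15. For L15 against L14 there were 0 (all genes 0.0106%).

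L16 was the lowest line in from 75 to 96 members with 1 line library left out, an alternative added after the data had been seen. Members at a few counts in the lines are limited by depth.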
